A study of Homo sapiens with 9 samples.

Results

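The short arm of human chromosome 19, up to position 20000000 of hg19, was examined in maps of 2 zinc finger proteins, zfp148 and zfp281, made by ChIP-seq in K562 cells. A peak was taken as a member where it lay on chromosome 19 and ended below that position. Peaks that overlapped positions 11477000 to 11506000 or 12985000 to 13008000 were left out, 51 peaks in all. This left 7646 peaks of the 316415 in the 9 deposited lists, on 19.948 Mb of sequence. The pooled lists held 1341 such peaks for bio-zfp148, 2231 for bio-zfp281 and 540 for BirA. The limit is a position and not a landmark of the chromosome, and the part of the short arm beyond it, next to the centromere, was counted with the rest of chromosome 19. The last pooled peaks inside the limit ended at 19976686 with 9 tags for bio-zfp148 and at 19978041 with 23 tags for bio-zfp281. The first beyond it started at 20067605 and at 20844056, each with 7 tags. The region is known to be rich in genes. That property was not checked here, because gene positions on hg19 were not used, and peaks are named by position alone.

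K562 is a human erythroleukaemia line, and all cells received hemin for 48 h (50 mM according to the labels) to bring on erythroid maturation. BirA, an enzyme of bacteria that attaches biotin, was stably expressed in every group. The bio-zfp148 and the bio-zfp281 cells also carried a recombinant zinc finger protein with a 23-residue motif at its amino terminus that BirA biotinylates, and they were selected clones with close to the endogenous level of the protein. BirA cells without a tagged protein were the control. Chromatin was recovered on streptavidin beads from 2 libraries per group, so 6 ChIP libraries in all. The authors' peak caller set both libraries of a group against the same input. Their calls therefore share a background and are not fully independent. The labels do not state whether replicates were separate cultures, so p-values measure the spread between these libraries, which may be technical.

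zfp148 (also called ZBP-89) and zfp281 (ZBP-99) are closely related Krüppel-type zinc finger proteins. Their similar zinc fingers contact G-rich stretches of DNA, which are common near the start sites of genes in GC-rich chromosome regions. In erythroid cells zfp148 is known as a partner of GATA1 at regulatory elements, and zfp281 is best known for its role in pluripotent stem cells.

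The libraries were shallow and differed in depth. After duplicate removal by the authors, the 4 libraries of tagged proteins held 810565 to 1570283 tags, BirA replicate 2 held 1080363, and BirA replicate 1 held 15956688. The lists use no molecular identifiers, so tags are not independent molecules. BirA replicate 1 also stood apart from BirA replicate 2 in its peaks. It gave 66002 peaks, against 7819 in BirA replicate 2, and 0% of them had a false discovery rate of 5% or less, against 94.4%. Tests in which BirA replicate 1 is one of the libraries compared are therefore also given without it. For overlap between replicates, only the value of BirA replicate 1 itself was left out.

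The short arm held the most peaks per Mb of the 20 Mb stretches of the autosomes in each of the 4 libraries of tagged proteins, and nearly so in one of the control libraries. On the short arm there were 28.7 and 33.9 peaks per Mb in bio-zfp148 replicates 1 and 2, against 5.30 and 5.96 on the other 21 autosomes. For bio-zfp281 the replicates held 58.2 and 18.7 per Mb, against 9.22 and 3.17. The bio-zfp148 ratios were thus 5.41 and 5.69, and the bio-zfp281 ratios 6.31 and 5.91. The number of peaks per Mb differed about 3-fold between the bio-zfp281 replicates, but the ratio to the other autosomes did not. BirA replicate 2, with no tagged protein, held 14.5 peaks per Mb on the short arm and 2.52 on the other autosomes, a ratio of 5.76 that lies within the range of the tagged libraries. BirA replicate 1 held 23.1 and 22.5 per Mb, a ratio of 1.03, with an exact 95% Poisson interval of 21.0 to 25.3 on the short arm that covers the value elsewhere. Those intervals, here and below, cover counting error only.

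**Figure D1:**
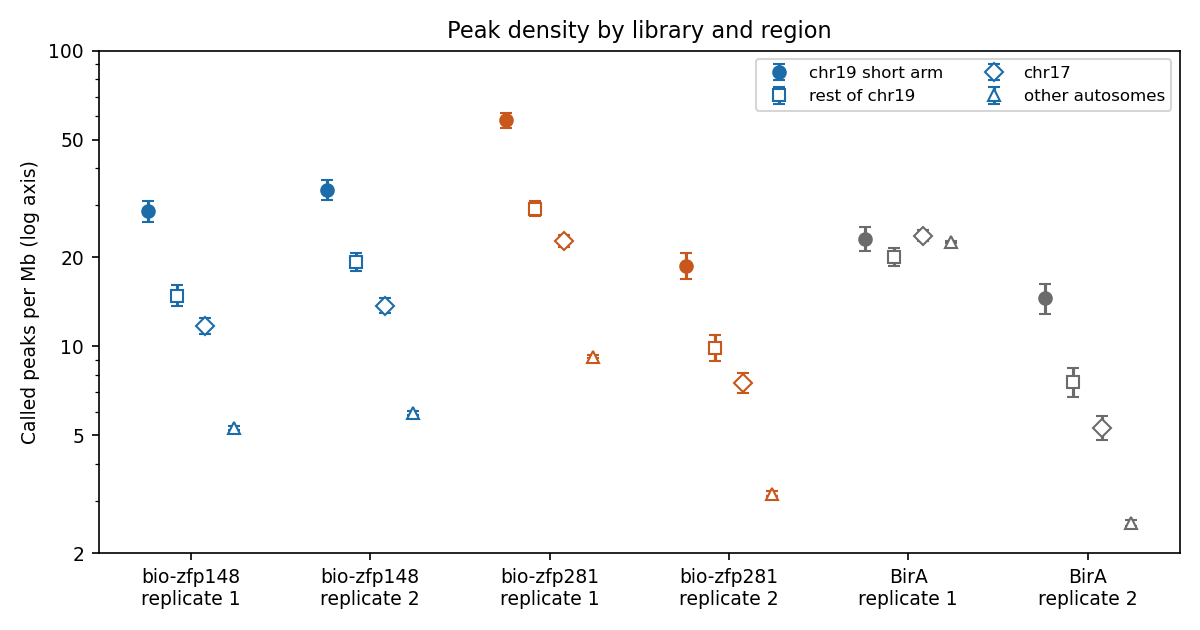
Called peaks per Mb (log axis) in each of the 6 ChIP libraries, on the short arm of chromosome 19 (filled circles), the rest of chromosome 19 (squares), chromosome 17 (diamonds) and the other autosomes (triangles); bars are exact 95% Poisson intervals. The short arm lies at 14.5 to 58.2 peaks per Mb in 5 libraries, above every other region shown, while in BirA replicate 1 the regions lie between 20.1 and 23.7.

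Over the 6 libraries the mean log2 ratio of the short arm to the other autosomes was 2.12 ± 1.02 (SD, n = 6). It was positive in 6 of 6 libraries, with a two-sided exact sign-flip permutation p of 0.0312, the smallest that 6 libraries allow. These libraries join tagged and control cells, so the mean describes no single group. The 4 tagged libraries alone allow no exact permutation p below 0.125. Adjusted over the 4 measures compared on the same libraries by the Benjamini-Hochberg method, the p was 0.0625. Without BirA replicate 1 the mean was 2.54, and the smallest exact permutation p for 5 libraries is 0.0625. The direction in BirA replicate 1 was not fixed, since its log2 ratio of 0.04 became -0.11 among peaks with a fold enrichment of at least 10. The mean log2 ratio was 2.54 ± 0.09 (SD, n = 4) in the tagged libraries and 1.28 ± 1.76 (SD, n = 2) in the BirA libraries. This difference was smaller than the spread between the BirA libraries (two-sided exact permutation p = 0.2, adjusted p = 0.8, smallest possible 0.0667). It rested on which BirA library was kept, and came to 0.0150 without BirA replicate 1 and 2.50 without BirA replicate 2. Between the proteins the mean log2 ratio was 2.47 for bio-zfp148 and 2.61 for bio-zfp281 (two-sided exact permutation p = 0.333, the smallest that 2 against 2 allows, adjusted p = 0.667).

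Among 133 windows of 20 Mb laid along the autosomes, the short arm ranked 1 in all 4 libraries of tagged proteins. In bio-zfp281 replicate 1 the next window, on chromosome 1 from 20 to 40 Mb, held 42.2 peaks per Mb, and the median window held 6.65. In bio-zfp148 replicate 1 the same window of chromosome 1 came next with 21.5 peaks per Mb, against a median of 4.25. BirA replicate 2 ranked the short arm 2, behind the window from 20 to 40 Mb on chromosome 22 with 15.2 per Mb. BirA replicate 1 ranked it 70. The density was also higher than on the chromosomes most like it. The rest of chromosome 19 held 14.8 and 19.3 peaks per Mb in the replicates of bio-zfp148, and 29.3 and 9.90 in those of bio-zfp281. Chromosome 17 held 11.7 and 13.7 in the bio-zfp148 libraries, and 22.7 and 7.53 in the bio-zfp281 libraries. Against the rest of chromosome 19 the mean log2 ratio was 0.80 over the 6 libraries (two-sided exact permutation p = 0.0312, the smallest possible), and it was positive in BirA replicate 1 as well, at 0.20. Without BirA replicate 1 it was 0.92 (exact permutation p = 0.0625, the smallest for 5 libraries). Against chromosome 17 it was 1.11 (exact permutation p = 0.0625), with BirA replicate 1 at -0.04, and 1.34 without that library.

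Peaks covered more of the short arm, and more tags lay in them. The pooled bio-zfp148 peaks covered 781 kb or 3.91% of the short arm, against 0.766% of the other autosomes. The pooled bio-zfp281 peaks covered 1377 kb or 6.90%, against 1.23%. Within the covered sequence the tag counts were closer, at 38.8 against 34.1 tags per kb for bio-zfp148 and 32.6 against 29.9 for bio-zfp281. In the single libraries of tagged proteins they were 18.6 to 22.1 tags per kb of peak on the short arm and 18.0 to 20.7 on the other autosomes. The surplus on the short arm was thus mainly one of more peaks, not of deeper ones. Of all filtered tags, short-arm peaks took up 0.750% and 0.627% in the bio-zfp148 replicates. They took up 0.941% and 0.445% in the bio-zfp281 replicates, and in BirA 0.0782% (replicate 1) and 0.210% (replicate 2).

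Peaks of the short arm held slightly more tags and were slightly wider than those of the other autosomes together. These differences did not pass 0.05 after adjustment. The median peak held 6 tags on the short arm and 5 on the other autosomes in bio-zfp148 replicate 1, and 8 and 7 in bio-zfp148 replicate 2. It held 8 and 7 tags in bio-zfp281 replicate 1, and 7 in both regions in bio-zfp281 replicate 2. The BirA medians were 22 and 16 tags in replicate 1, and 6 in both regions in replicate 2. The mean log2 ratio of the medians was 0.18 ± 0.17 (SD, n = 6), above 0 in 4 libraries and 0 in the other two (two-sided exact permutation p = 0.125, adjusted p = 0.125), and 0.13 without BirA replicate 1. The medians are whole numbers near the lowest tag counts of the lists, which were 4 to 12, so this measure is coarse. On the rest of chromosome 19 the tagged libraries had the same medians as on the short arm. These were 6 and 8 tags in bio-zfp148 replicates 1 and 2, and 8 and 7 in bio-zfp281 replicates 1 and 2. Median widths were 523 and 580 bp on the short arm in bio-zfp148 replicates 1 and 2, against 473 and 542 bp on the other autosomes. The bio-zfp281 medians were 575 bp (replicate 1) and 541.5 bp (replicate 2), against 548 and 519 bp. The BirA medians were 559 bp (replicate 1) and 488.5 bp (replicate 2), against 516 and 486 bp. The mean log2 ratio of width was 0.08 ± 0.05 (SD, n = 6), positive in 6 of 6 libraries (two-sided exact permutation p = 0.0312, adjusted p = 0.0625), and 0.0761 without BirA replicate 1. It was 0.09 in the tagged libraries and 0.06 in BirA (exact permutation p = 0.533), a difference of 0.0859 without BirA replicate 1 and -0.0221 without BirA replicate 2. Median widths on the rest of chromosome 19 were near those of the short arm. They were 498.5 and 568.5 bp in bio-zfp148 replicates 1 and 2, and 576 and 532 bp in bio-zfp281 replicates 1 and 2. The fold enrichment that the authors' caller gave was slightly lower on the short arm than on the other autosomes in the pooled lists. Its medians were 10.6 and 11.1 for bio-zfp148 and 5.76 and 6.03 for bio-zfp281.

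The upper end of the tag counts was fuller on the short arm than on the other autosomes together. It was about as full on the rest of chromosome 19 and on chromosome 22. Of the pooled bio-zfp148 peaks, 11.3% held 40 tags or more on the short arm, against 7.44% on the other autosomes. Of the pooled bio-zfp281 peaks, 9.50% did, against 6.32%. In the pooled BirA list the shares were 25.4% and 12.6%. In BirA replicate 1, which gave most of the tags of that list, they were 17.6% and 8.10%. In BirA replicate 2 they were 0.690% of 290 peaks and 0.365% of 7116, with 0% on the rest of chromosome 19. The pooled control peaks thus showed the same lean, while the share in BirA replicate 2 rests on very few peaks. The 3 bio-zfp148 peaks with most tags and the 3 bio-zfp281 peaks with most tags lay at only 4 places, and each of these met a BirA peak. At chr19:18414698-18415730, bio-zfp148 replicates 1 and 2 held 189 and 228 tags, bio-zfp281 replicates 1 and 2 held 180 and 79, and BirA replicate 2 held 34. At chr19:4081421-4082276 bio-zfp148 had 129 and 207 tags, bio-zfp281 had 208 and 83, and BirA replicate 2 had 46. At chr19:6532996-6534283 bio-zfp148 had 106 and 182 tags, bio-zfp281 had 211 and 68, and BirA replicate 2 had 30. Raw tags are not scaled for depth, and the places were chosen for their tags in the tagged lists, so these counts do not compare the control with the proteins. At chr19:4144601-4146505 the bio-zfp148 libraries held 113 and 158 tags, the bio-zfp281 libraries 200 and 93, and BirA replicate 2 held 55, with a pooled BirA peak of 184 tags. BirA replicate 1 had no peak at any of the 4 places.

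In 5 of the 6 libraries, peaks of the short arm were found again more often in the other replicate of the same cells. In bio-zfp148, 61.9% of the replicate 1 peaks and 51.9% of the replicate 2 peaks met the other replicate on the short arm, against 52.3% and 46.3% on the other autosomes. In bio-zfp281, 26.4% of the replicate 1 peaks and 80.5% of the replicate 2 peaks did, against 24.8% and 72.4%. BirA gave 12.8% and 20.3% for replicates 1 and 2 on the short arm, against 2.66% and 24.4%. The mean difference was 5.17 ± 5.47 percentage points (SD, n = 6), positive in 5 of 6 libraries (two-sided exact permutation p = 0.0938, adjusted p = 0.125). It was 4.18 without the value of BirA replicate 1, but the BirA replicate 2 value kept in that mean also rests on BirA replicate 1. The mean over the 4 libraries of tagged proteins was 6.23. The 2 values of a group come from the same pair of libraries and are not independent.

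Seen from the pooled lists, 344 of the 1341 bio-zfp148 peaks of the short arm met a peak in both replicates, or 25.7% (exact 95% binomial interval 23.3 to 28.1%), where all autosomes gave 19.3%. For bio-zfp281 it was 302 of 2231, or 13.5% (12.1 to 15.03%), where all autosomes gave 10.3%. The rest of chromosome 19 gave 23.8% for bio-zfp148 and 12.6% for bio-zfp281, both within the intervals of the short arm. Chromosome 17 gave 21.6% and 11.5%, both below them. Peaks with no support in either replicate made up 38.4% of the bio-zfp148 and 47.1% of the bio-zfp281 peaks on the short arm, against 46.8% and 56.5% on the other autosomes. Replicate support followed the tag count. Among bio-zfp148 peaks of 20 to 39 tags, 73.6% (66.8 to 79.6%) had support in both replicates on the short arm and 69.4% on the other autosomes. Among those of 40 tags or more it was 98.0% (94.3 to 99.6%) and 98.5%. For bio-zfp281 the shares were 31.8% (26.9 to 37.0%) and 35.9% at 20 to 39 tags, and 86.8% (81.5 to 91.0%) and 85.3% at 40 or more. Had the other autosomes held the tag classes in the proportions of the short arm, their support would have been 24.5% for bio-zfp148 and 14.2% for bio-zfp281. The short arm's values of 25.7% and 13.5% lie beside these, so at like tag counts no difference in support larger than the counting error was seen.

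**Figure D2:**
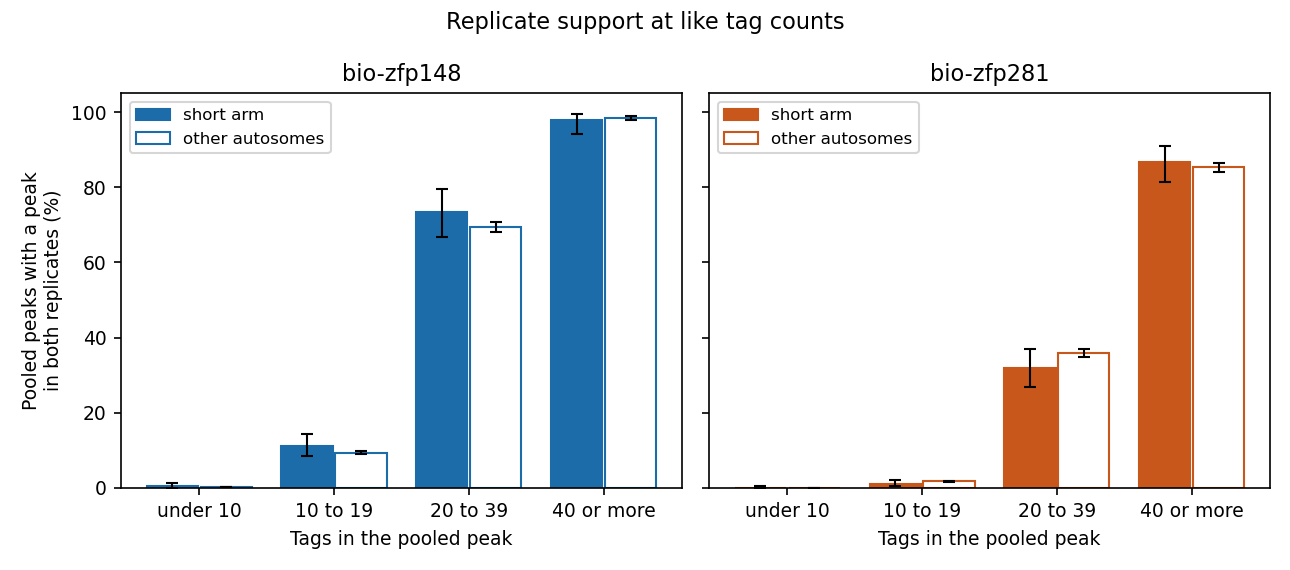
Share of pooled peaks (%) with a peak in both replicates, by the tags in the pooled peak, for bio-zfp148 (left) and bio-zfp281 (right); filled bars are the short arm, open bars the other autosomes, and error bars exact 95% binomial intervals. Within each class the intervals of the short arm cover the value of the other autosomes, for example 98.0% and 98.5% for bio-zfp148 at 40 tags or more.

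Control peaks met bio-zfp148 peaks of the short arm about as often as elsewhere, and bio-zfp281 peaks slightly less often. Of the 1341 bio-zfp148 peaks, 312 met a peak of any BirA list, or 23.3% (21.0 to 25.6%), where all autosomes gave 23.1%. Of the 2231 bio-zfp281 peaks, 457 did, or 20.5% (18.8 to 22.2%), where all autosomes gave 22.5%, a value above the interval. At the tag classes of the short arm the other autosomes would have given 25.4% for bio-zfp148 and 25.3% for bio-zfp281. The balance of the control libraries was different. BirA replicate 2 met 13.5% of the bio-zfp148 and 10.4% of the bio-zfp281 peaks on the short arm, against 8.82% and 7.36% on the other autosomes. BirA replicate 1 met 9.99% and 9.86%, against 14.5% and 15.1%. BirA replicate 2 peaks were 5.76 times denser on the short arm, and BirA replicate 1 peaks were not, and the part of this in the shares was not tested. In the single libraries, the share met by any BirA list was 30.8% and 31.1% for bio-zfp148 replicates 1 and 2 on the short arm, against 30.9% and 33.7%. It was 28.4% and 40.1% for bio-zfp281 replicates 1 and 2, against 33.9% and 41.9%. The mean difference of -2.50 percentage points was negative in 4 of 4 libraries (two-sided exact permutation p = 0.125, the smallest possible, adjusted p = 0.125). It was 0.80 at a minimum of 100 on the authors' p scale (10 times −log10 p) and 0.57 for summits within 200 bp, so the direction depended on these settings.

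A site was defined as a pooled peak that met a peak in both replicates of its protein and no peak of any BirA list. The short arm held 203 bio-zfp148 sites and 159 bio-zfp281 sites. Sites were 15.1% of the bio-zfp148 and 7.13% of the bio-zfp281 peaks in its pooled lists, where all autosomes gave 11.0% and 5.05%. The density was 10.2 bio-zfp148 sites per Mb (8.82 to 11.7), against 1.56 on the other autosomes. It was 7.97 bio-zfp281 sites per Mb (6.78 to 9.31), against 1.10. The ratios were 6.54 for bio-zfp148 sites and 7.26 for bio-zfp281 sites, against 4.68 and 5.03 for all peaks of the pooled lists from which the sites were taken. Other definitions of a site, and leaving out a library, gave ratios of 5.58 to 7.29 in bio-zfp148. In bio-zfp281 they gave 6.25 to 7.26. With BirA replicate 2 alone as the control there were 239 bio-zfp148 and 190 bio-zfp281 sites, of which 45.2% and 56.3% were shared with the other protein, and the density ratios were 5.99 and 6.25. The rest of chromosome 19 held 4.81 and 3.45 sites per Mb, and chromosome 17 held 3.70 and 2.77.

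The sites of the short arm were wider than those of the other autosomes together and rested on few tags. The median bio-zfp148 site was 792 bp wide and the median bio-zfp281 site 915 bp, against 667 and 767 bp on the other autosomes. On the rest of chromosome 19 the median widths lay between these, at 722 and 865 bp. The median site held 30 tags in the pooled bio-zfp148 list and 39 in the pooled bio-zfp281 list, against 28 and 35. In the single libraries of bio-zfp148 the median was 7 tags in replicate 1 and 11 in replicate 2, against 7 and 10 on the other autosomes. In those of bio-zfp281 it was 14 tags in replicate 1 and 7 in replicate 2, against 13 and 7. At 41 of the 203 bio-zfp148 sites the replicate 1 peak held 4 tags, the lowest count in that list. At 41 of the 159 bio-zfp281 sites the replicate 2 peak held 5 tags, again the fewest in its list. Thus 20.2% of the bio-zfp148 and 25.8% of the bio-zfp281 sites stood at the limit of what the shallower library could call, much as on the other autosomes with 19.7% and 26.1%.

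The proteins shared their sites on the short arm about as often as elsewhere. Of the 203 bio-zfp148 sites, 90 overlapped a bio-zfp281 site, or 44.3% (37.4 to 51.5%), where all autosomes gave 41.3%. Of the 159 bio-zfp281 sites, 89 overlapped a bio-zfp148 site, or 56.0% (47.9 to 63.8%), where all autosomes gave 57.6%. Both intervals cover the value of all autosomes. The shares moved with the libraries used in both regions. Without bio-zfp281 replicate 2, 76.8% of the bio-zfp148 and 20.4% of the bio-zfp281 sites were shared on the short arm, against 74.8% and 20.5% on the other autosomes. Without bio-zfp148 replicate 1 the shares were 28.4% and 76.7%, against 22.2% and 72.7%. Without bio-zfp148 replicate 2, 29.2% of the bio-zfp148 sites were shared, against 22.6%. The sites fell in 272 places, of which 89 held a site of both proteins, 113 a bio-zfp148 site alone and 70 a bio-zfp281 site alone. Most sites outside the shared set still met a pooled peak of the other protein. Over all sites, 181 bio-zfp148 sites (89.2%, 84.1 to 93.1%) met a pooled bio-zfp281 peak, against 88.7% on the other autosomes. A pooled bio-zfp148 peak met 144 bio-zfp281 sites (90.6%, 84.9 to 94.6%), against 86.0%.

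When all peaks of a library were taken, the other protein was met more often on the short arm. A pooled bio-zfp281 peak met 81.5% and 80.2% of the peaks of bio-zfp148 replicates 1 and 2 on the short arm, against 68.6% and 73.8% on the other autosomes. A pooled bio-zfp148 peak met 56.8% and 78.1% of the peaks of bio-zfp281 replicates 1 and 2, against 53.4% and 72.1%. The mean difference was 7.17 ± 4.04 percentage points (SD, n = 4), positive in 4 of 4 libraries (two-sided exact permutation p = 0.125, the smallest possible, adjusted p = 0.125). With summits within 200 bp as the rule it was 2.77 points (exact permutation p = 0.25), and bio-zfp281 replicate 1 had a difference of -0.187. Pooled bio-zfp281 peaks covered 6.90% of the short arm and 1.23% of the other autosomes, and the part of this in the difference was not tested.

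At the 90 pairs of shared sites the median distance between the summits was 43.5 bp, with quartiles of 18 and 83.8 bp, and 84.4% of the pairs had theirs within 100 bp. On the other autosomes the median was 34 bp (15 and 74 bp), with 80.7% within 100 bp. Scaled by the filtered tags of the pooled lists, the bio-zfp148 count of a pair was 0.908 times the bio-zfp281 count in the median (quartiles 0.684 and 1.31), and it was the higher one in 40 of 90 pairs. On the other autosomes the median was 1.03 (0.720 and 1.45), with bio-zfp148 higher in 52.6%. The ratio ranged from 0.275 to 2.51 on the short arm. Shared sites were the fuller ones. They held a median of 41 tags for bio-zfp148 and 48 for bio-zfp281, against 23 and 31 at the sites that were not shared. On the other autosomes the medians were 39 and 43 tags at shared sites, against 23 and 28. A shared site needs calls in the replicates of both proteins, so its definition itself favours fuller peaks.

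The 8 strongest shared sites were ranked by the worse of their ranks in fold enrichment. Their calls in all 4 libraries of tagged proteins, and in no BirA list, follow from the definition of a shared site. Where more than 1 peak of a library met a site, the fuller one is given. Site 1, at chr19:14315299-14315738, held 13 and 14 tags in bio-zfp148 replicates 1 and 2, with 11 and 9 tags in the bio-zfp281 replicates. Its pooled fold enrichment was 141 for bio-zfp148, the highest of any bio-zfp148 site of the short arm, and 63.9 for bio-zfp281. Its summits lay 18 bp apart. The site was narrow and its counts were low but close to each other in the 4 libraries.

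Site 5, at chr19:10863699-10864650, was the fullest site of the short arm for each protein. It held 83 and 88 tags in bio-zfp148 replicates 1 and 2, with 85 and 46 tags in the bio-zfp281 replicates, and 300 and 226 in the pooled lists. The replicates of bio-zfp148 were nearly equal, and the count of bio-zfp281 replicate 2 was lower, as was its depth. Its fold enrichment of 61.8 and 45.4 was below that of site 1, although it held over 5 times as many pooled tags for each protein.

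Site 2, at chr19:926615-927867, held 11 and 25 bio-zfp148 tags in replicates 1 and 2 and 39 and 13 bio-zfp281 tags, with summits 8 bp apart. Site 3, at chr19:3933147-3933512, held 8 and 16 bio-zfp148 tags and 26 and 5 bio-zfp281 tags. Site 7, at chr19:3950488-3951334, lay close by and held 11 and 34 bio-zfp148 tags and 28 and 6 bio-zfp281 tags. At these sites the deeper library of each protein, bio-zfp148 replicate 2 and bio-zfp281 replicate 1, held more tags than the shallower one. Site 4, at chr19:10197319-10197997, went the other way for bio-zfp148, with 16 tags in replicate 1 and 8 in replicate 2, and had 20 and 6 for bio-zfp281 with summits 1 bp apart. Site 6, at chr19:1027004-1027785, held 13 and 24 bio-zfp148 tags and 29 and 12 bio-zfp281 tags. Site 8, at chr19:1250722-1251294, held 12 and 18 bio-zfp148 tags and 16 and 6 bio-zfp281 tags, and its summits lay 147 bp apart, the widest of the 8.

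**Figure D3:**
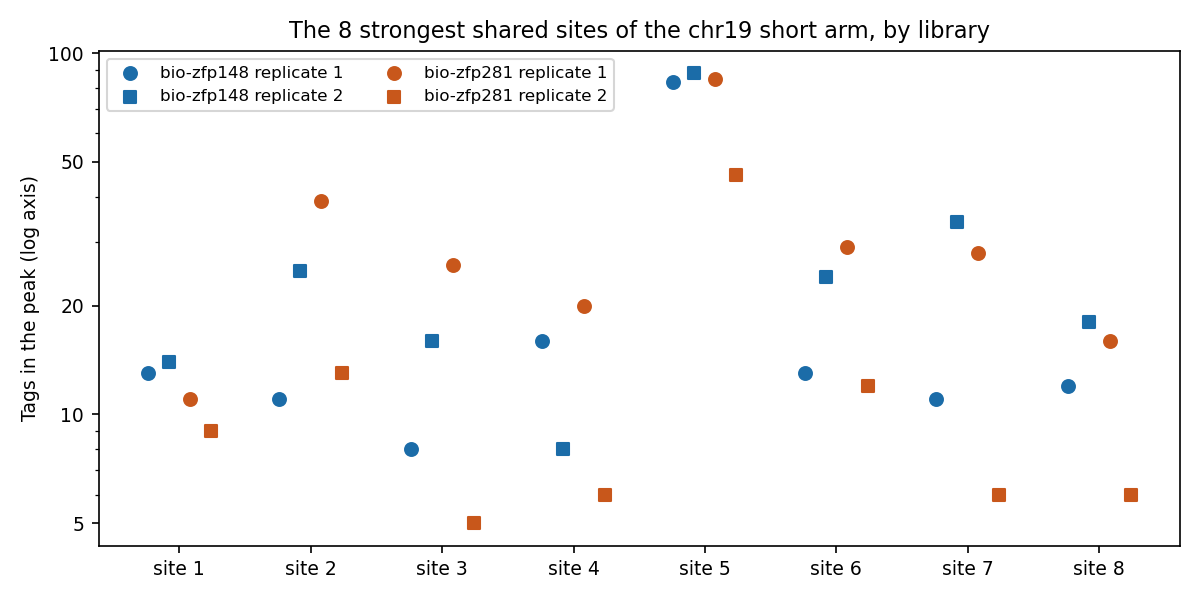
Tags in the peak (log axis) at the 8 strongest shared sites of the short arm in bio-zfp148 replicates 1 and 2 (blue) and bio-zfp281 replicates 1 and 2 (orange), not scaled for depth. Site 5 holds 46 to 88 tags in every library, and the other sites hold 5 to 39, with bio-zfp281 replicate 2 the lowest library at 7 of the 8 sites.

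The strongest sites of each protein outside the shared set were also met by the other protein. Of the 5 strongest such bio-zfp148 sites, each met a peak of bio-zfp281 replicate 1 and of its pooled list, and none met a peak of bio-zfp281 replicate 2. The first, at chr19:5697344-5697785, held 18 and 23 tags in bio-zfp148 replicates 1 and 2 and 5 tags in bio-zfp281 replicate 1. Its pooled counts were 74 and 9 tags, the most unequal of the 5. At chr19:2041763-2042432 the counts were 9 and 12 in bio-zfp148 and 13 in bio-zfp281 replicate 1, so this place had like counts for both proteins but no call in the shallower bio-zfp281 library. Among bio-zfp281 sites that were not shared, each of the 5 strongest met a peak of bio-zfp148 replicate 2 and none a peak of bio-zfp148 replicate 1. At chr19:1769354-1770098 bio-zfp281 held 12 and 9 tags and bio-zfp148 replicate 2 held 9. At chr19:2084420-2085697 bio-zfp281 held 26 and 7 tags and bio-zfp148 replicate 2 held 6, with pooled counts of 71 and 10. In both sets the missing call fell in the library of the other protein with fewer tags.

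Sites with no peak of the other protein in any of its 3 lists numbered 19 for bio-zfp148, or 9.36% of its sites (5.73 to 14.2%), where all autosomes gave 10.3%. They numbered 13 for bio-zfp281, or 8.18% (4.43 to 13.6%), where all autosomes gave 12.1%. Both intervals cover the share over all autosomes. These sites held a median of 18 pooled tags (8 to 33) for bio-zfp148 and 24 (18 to 47) for bio-zfp281, fewer than the medians of 30 and 39 over all sites of the short arm. The fullest were chr19:5779203-5779949, with 4 and 13 tags in bio-zfp148 replicates 1 and 2, and chr19:2034012-2035599, with 15 and 5 tags in bio-zfp281 replicates 1 and 2. At these depths a call missing in the other protein does not show that the protein was absent.

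Merging the peaks of the 6 single libraries gave 1492 places on the short arm with a peak of a tagged protein. Of these, 57.1% were called in 1 library of the 4, 18.8% in 2, 10.9% in 3 and 13.2% in all 4. On the other autosomes the shares were 63.4%, 16.3%, 9.99% and 10.3%. Places called in more libraries met the control more often in each region. On the short arm a BirA library also called 12.8% of the places found in 1 tagged library and 50.8% of the 197 found in all 4. On the other autosomes it called 17.5% and 52.9%.

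Along the short arm the peaks were spread over nearly its whole length, with the fewest in the bin from 9 to 10 Mb. In bins of 1 Mb the bio-zfp148 sites numbered 1 to 21 with a median of 11, and the bio-zfp281 sites 1 to 17 with a median of 8.5. The bin from 10 to 11 Mb held the most, 21 bio-zfp148 and 17 bio-zfp281 sites. It was followed by the bin from 1 to 2 Mb with 15 and 10. Next came 4 bins with 24 sites of both proteins together, namely 0 to 1, 3 to 4, 13 to 14 and 14 to 15 Mb. No bin was without a site. The bin from 15 to 16 Mb held only 4 bio-zfp148 and 2 bio-zfp281 sites. The bin from 9 to 10 Mb was the lowest in each of the 9 lists. It held 5 and 4 peaks in bio-zfp148 replicates 1 and 2, against bin medians of 27 and 33.5. It held 10 and 1 in bio-zfp281 replicates 1 and 2, against 57.5 and 18.5. It held 10 and 3 in BirA replicates 1 and 2, against 21 and 14. The longest stretch without a site of either protein, chr19:8795032-9785336, ran into this bin, and it still held 12 pooled bio-zfp148, 18 pooled bio-zfp281 and 7 pooled BirA peaks. The next longest were chr19:6801981-7559701 and chr19:12036220-12595435.

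**Figure D4:**
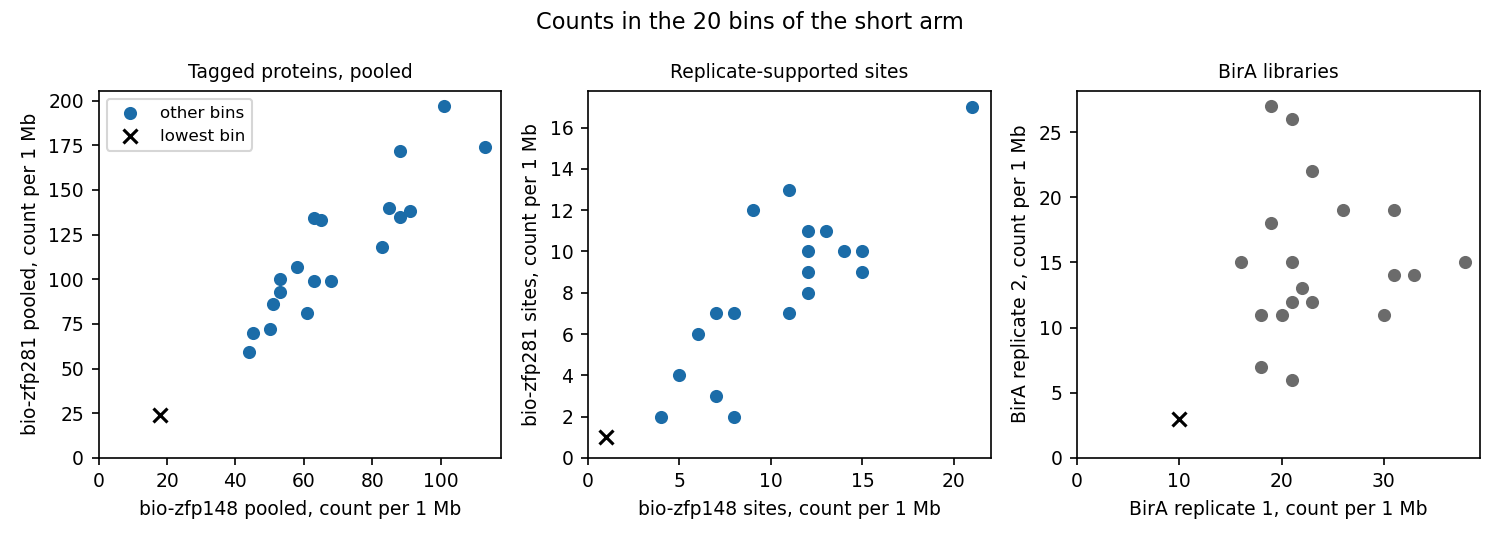
Counts per 1 Mb bin over the 20 bins of the short arm: pooled bio-zfp281 against pooled bio-zfp148 peaks (left), bio-zfp281 against bio-zfp148 sites (middle) and BirA replicate 2 against BirA replicate 1 peaks (right); the cross is the bin from 9 to 10 Mb. Bins rich in one tagged protein are rich in the other, with 18 bio-zfp148 and 24 bio-zfp281 pooled peaks in the lowest bin and 101 and 197 in the bin from 18 to 19 Mb, while the BirA libraries differ over the bins.

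The counts of both proteins moved together from bin to bin. Over the 20 bins, which share libraries and depth and are not independent, Pearson's r between the pooled lists was 0.921 (Spearman's rho 0.929). It was 0.895 without the lowest bin. Replicates gave an r of 0.857 in bio-zfp148, replicates of bio-zfp281 one of 0.910, and between single libraries of different proteins r ranged from 0.781 to 0.913. The proteins thus followed each other about as closely as replicates did. Between BirA replicates 1 and 2 r was 0.221, and 0.0204 without the lowest bin. The pooled bio-zfp148 list followed BirA replicate 2 (r = 0.760) more closely than BirA replicate 1 (0.565), and the pooled bio-zfp281 list did so too (0.747 and 0.605).

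Neighbouring sites lay closer together than elsewhere. This measure partly restates the higher density of sites and is not a separate result. The median distance between neighbouring summits was 49.1 kb for bio-zfp148 sites and 59.4 kb for bio-zfp281 sites, against 172 and 210 kb on the other autosomes. Of neighbouring bio-zfp148 sites, 9.90% lay within 5 kb, against 6.55%, and of bio-zfp281 sites 8.23%, against 5.95%. Among control peaks the median distance was 40.8 kb in BirA replicate 2, against 90.0 kb on the other autosomes, and 25.3 kb in BirA replicate 1, against 22.3 kb. The closer spacing was thus also present in BirA replicate 2. In windows of at most 50 kb, chosen after the values were seen, up to 5 separate places lay together, at chr19:7559702-7599059 and at chr19:11639501-11689366.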

How the data were processed

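The submitters' processing notes name Bowtie 1.0.0, MACS 1.4 and the build hg19. The authors called peaks with MACS 1.4.0rc2 at a p cutoff of 1e-05, per the file headers. Each of the 9 deposited lists, 6 of single libraries and 3 of joined replicates, gives tag counts per peak after duplicate removal, a score (10 times −log10 p), a fold enrichment as a ratio over the scaled input and a false discovery rate in percent, all computed by the authors. The joined lists of the tagged proteins kept up to 2 tags per position, against 1 in their single libraries. Low depth limits detection, and lists hold no value where nothing was called, so no count model was fitted.

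Peak density, median tags, median width and overlap shares (at least 1 bp) were computed per library for the short arm and for the other 21 autosomes (2819.6 Mb, from position 1 to the highest peak end). The 6 ChIP libraries (4 for measures of the tagged proteins only) were compared by exact permutation tests with Benjamini-Hochberg adjustment. The functions were tested on simulated lists with planted overlaps and densities. Alternatives were stricter peak minima, other overlap rules, other lengths, other comparison regions, other uses of the BirA lists, a replicate block and leaving out each replicate. The comparison with chromosome 17, and leaving BirA replicate 1 out of it and of that with the rest of chromosome 19, were added after the values were seen.

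The members, the measures and the site definition were chosen with earlier results of these data known. Named regions were the 8 shared sites and the 5 sites of each protein alone with the highest fold enrichment, the 3 peaks of each protein with most tags, the 2 of each with most tags that met a BirA peak, and the bins with most and no sites. The fullest sites without a peak of the other protein, the longest stretches and the closest groups were picked after their values were seen. Python 3.11.15, numpy 2.4.6, pandas 2.3.3, scipy 1.17.1 and matplotlib 3.10.9 were used.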

Additional observations from a re-analysis of the deposited data

How the results depend on the processing

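The mean log2 density ratio stayed positive in 12 of 12 alternatives. It was 2.00 at a fold enrichment of at least 10, 2.14 without chromosomes 9 and 22, 2.03 over occupied 1 Mb bins and 1.11 against chromosome 17, each with an exact permutation p of 0.0625, because BirA replicate 1 changed sign. Leaving out 1 library gave 2.01 to 2.54, with p = 0.0625, the smallest 5 libraries allow in the exact permutation test. Against the rest of chromosome 19 it was 0.92 without BirA replicate 1, with the same p. For width the value was 0.16 at a fold of at least 10 (exact permutation p = 0.0625) and 0.0703 to 0.0978 with 1 library left out. At a fold of at least 10 the exact permutation p became 0.0312 for median tags (log2 ratio 0.47) and for replicate overlap (8.62 percentage points). The difference in the BirA share turned positive with a p-scale minimum of 100 (0.80 percentage points) and with summits within 200 bp (0.57).

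Between groups, 9 of 102 alternatives reversed and none could pass 0.05. Tagged against BirA libraries, the main difference in log2 tags was -0.0676 (exact permutation p = 0.8). It was 0.0796 with a p-scale minimum of 100 and 0.35 at a fold of at least 10. With 1 library left out it ran from -0.30 to 0.16, the difference in log2 width from -0.0221 to 0.0859, that in log2 density from 0.0150 to 2.50, and that in replicate overlap from -3.91 to 10.2 points. For bio-zfp148 against bio-zfp281, the main differences were 0.13 for log2 tags, 4.93 points for overlap with the other protein and 2.32 points for BirA. A fold of at least 10 gave -0.29, -3.41 and -0.86 for these. The difference in replicate overlap was 2.73 points, and -0.52 to 5.97 points with 1 library left out. In replicate overlap only the value of the library left out was dropped, and the other value of its group still rested on it.

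Without BirA removal there were 344 bio-zfp148 and 302 bio-zfp281 sites, of which 57.3% and 64.2% were shared. Removing only BirA peaks in both replicates gave 322 and 274 sites, with 54.7% of the bio-zfp148 sites shared. A fold of at least 10 left 93 and 20 sites, with 15.1% and 70.0% shared. With 1 replicate left out there were 203 to 437 bio-zfp148 sites (437 without its replicate 1, 353 without its replicate 2) and 159 to 783 bio-zfp281 sites (783 without its replicate 2, 214 without its replicate 1), of which 28.4% to 76.8% and 20.4% to 76.7% were shared. On the other autosomes a fold of at least 10 gave 14.1% for bio-zfp148 and 59.5% for bio-zfp281, the second a smaller move than on the short arm, where 20 sites were left.

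Deviations of same-numbered libraries over 2893 bins of 1 Mb correlated weakly. The r was 6.61e-05 between bio-zfp148 and bio-zfp281, 0.109 between bio-zfp148 and BirA, and 0.0733 between bio-zfp281 and BirA. Little pairing by replicate number was thus seen in the counts, which does not show how the libraries were made. With the replicate block the density ratio differed by 1.26 between tagged and BirA libraries and by -0.14 between the proteins (exact permutation p = 0.5, the smallest 2 pairs allow).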

Other observations

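Letters that zfp148 and zfp281 are known to favour were counted in promoters of the RefSeq table (GRCh38.p14, 250 bases before to 50 after a start), which could not be tied to the peaks because the builds differ. GGGGAGGGG, on either strand, was present in 10.3% of the 1917 promoters of chromosome 19, both arms together, against 7.56% of the 31808 on the other autosomes and 7.81% of all promoters. GGGAGGG, which lies within it, was present in 33.2%, against 26.0% and 26.6% of all. These shares describe the promoters of the whole chromosome, and a match is not a binding site.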
